A study of Mus musculus with 14 samples.

Results

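The genes described here are 10 whose liver signal was lower after hepatocyte deletion of AMP-activated protein kinase (AMPK) and that lie outside the main pathways of fat, cholesterol and glucose metabolism. They are Clec2h, Dsg1c, Rcan2, Tle3, Slc3a1, Arhgap6, Zfp358, Fndc4, Pter and Xlr3a, of 19505 named genes on the arrays, and each has 1 row. They were picked from the knockout against control comparison of these same 14 arrays, with no numeric threshold, so their lower signal in knockout livers is the way they were chosen and not a finding. Their values in that comparison are given as a description, and tests are reserved for measures that played no part in the choice.

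AMPK is a kinase complex that senses falling cellular energy and switches cells from building to burning fuel. Its catalytic alpha subunit exists in an alpha1 form, encoded by Prkaa1, and an alpha2 form, encoded by Prkaa2. In the liver AMPK is best known for restraining fat and cholesterol synthesis and as a candidate mediator of the glucose-lowering drug metformin. The genes below have other known roles: cell-surface recognition, cell adhesion, calcineurin signalling, transcriptional repression, cytoskeletal control, amino acid transport and taurine metabolism.

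Liver RNA came from male mice of C57BL/6 background, homozygous for floxed Prkaa1 and Prkaa2 alleles, labelled as 4 months old. From 6 weeks of age they ate a high-fat diet for 4 weeks, then received at 10 weeks an AAV8 virus with the TBG promoter, which directs expression to hepatocytes. The virus was empty in the 6 control samples and carried Cre recombinase in the 8 knockout samples, and all mice, controls included, then received metformin (50 mg/kg daily) over 3 weeks and were fasted 16 h. Liver cells other than hepatocytes keep both alleles. The labels do not state that each sample is a separate mouse, so a p-value refers to the scatter among these samples, some of which may be technical. In bulk tissue, fewer cells of a type and less RNA per cell cannot be told apart.

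The arrays fell into 2 sets by their correlation over all rows. Control 1 to 3 and knockout 1 to 4 formed set 1, and control 4 to 6 and knockout 5 to 8 formed set 2, giving 3 controls and 4 knockouts in each. The labels do not name these sets, and what separates them is not known here. Differences below are log2 signal in knockout less that in control, fitted with the set as a term and given ± SE, unless a set is named. Hepatocyte markers averaged 12.36 to 12.48 on the arrays of set 1 and 12.84 to 12.96 on those of set 2. Values of different rows are not compared as levels, since probes differ in brightness. Array medians (5.73 to 5.87) serve only to say where a row is dim. Of 14 lists of cell type markers, 13 had no member past the threshold of an adjusted p of 0.05 in limma, and the intestine list had 1, Fabp2, a fatty acid binding protein, which rose by 0.46 ± 0.09. Exocrine pancreas markers (4 measured, 0 called) had a median difference of -0.38. Their array means reached 7.20 in set 2 controls, on control 6, and 6.03 in set 2 knockouts. In set 1 they reached 6.11 in controls and 6.20 in knockouts. Other list means also varied between arrays of a group. Sinusoidal endothelium markers averaged 7.13 in control 1, 7.59 in control 4, 7.49 in knockout 1 and 7.55 in knockout 4. On the other arrays they reached 8.38 (knockout 7). Bile duct markers averaged 6.52 in control 3 and 6.55 in knockout 1. On the other arrays they ran from 5.06 (knockout 5) to 5.50 (knockout 2). The part of such shifts in the results was not tested.

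The targeted genes were checked before any other. Prkaa2 read 8.76, 8.79 and 8.96 in the controls of set 1 and 7.58, 7.80, 7.69 and 7.82 in the knockouts. In set 2 it read 9.67, 9.74 and 9.91 in controls and 8.54, 8.45, 8.75 and 8.78 in knockouts. Every knockout array lay below every control array of its own set, and Prkaa2 stood at 0.458 of the control level. Prkaa1 was at 0.629, also with no overlap within either set. The exons read by these rows, and whether Cre removes them, are not known here.

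**Figure D1:**
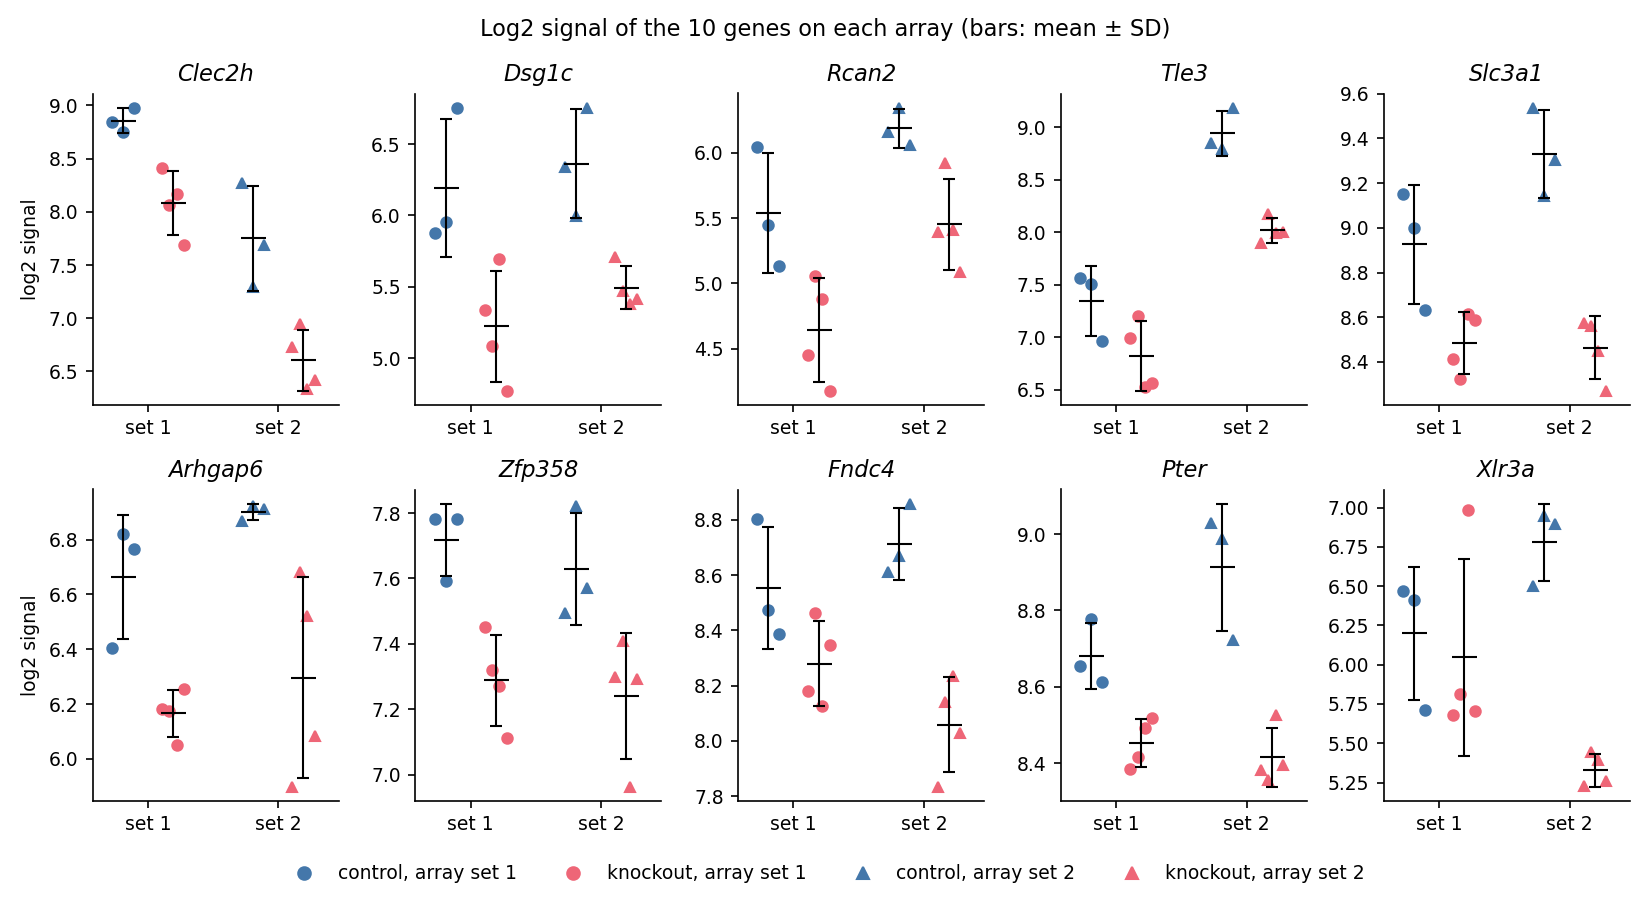
Log2 signal (vertical axes) of the 10 genes on each of the 14 arrays. Circles are array set 1 and triangles set 2, blue is control and red knockout, and black bars are the mean ± SD of 3 controls or 4 knockouts. In set 2 all 4 knockouts lie below all 3 controls for each gene, while Tle3, Fndc4 and Xlr3a overlap in set 1.

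In the fit with the array set as a term, 9 of the 10 passed the threshold as lower, against 0.272% of all genes, and Xlr3a did not. In 7 of the 10 all knockout arrays lay below all controls of their own set, in each set, against 0.538% of all genes (0.774% had all knockouts above). Both counts restate the choice of genes. The falls ran from 0.364 for Pter to 0.958 for Clec2h, with a median difference of -0.69 beside 0.00 over all genes. Dsg1c, Slc3a1, Zfp358 and Pter had every knockout array below all 6 controls regardless of set. This too restates the choice, and the share of all genes with this pattern was not computed.

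Promoter letters were compared among the 10 genes. RefSeq start sites (GRCm38.p6) matched 9 of the 10, and the 250 bases before the start listed first for each gene were searched on both strands for 9 short motifs. The letters searched for liver-enriched factors were GTTAAT for HNF1, GTAAACA for forkhead proteins and CAAAGTC for HNF4. Nuclear receptors were searched as AGGTCA, the E-box as CACGTG and the cyclic AMP response element as TGACGT. General promoter elements were searched as GGGCGG for SP factors, CCAAT for NF-Y and TATAAA for the TATA box, and no motif's letters lie within another's. Rcan2 and Arhgap6 have 3 listed starts each and Fndc4 has 2. No motif was in more than 3 of the 9 first windows, and with all listed starts CCAAT was in 4 genes, Rcan2 being added, and GTTAAT in 3, also with Rcan2 added. In the first windows GGGCGG and CCAAT were each in 3, and they occur in 32.7% and 33.8% of all 32851 windows. CAAAGTC was in the windows of Rcan2 and Slc3a1 (3.8% of all windows), GTTAAT in those of Tle3 and Fndc4 (6.4%), and GTAAACA and AGGTCA in none (3.2% and 14.0%). A match is a string of letters and not a shown binding site.

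4 windows are printed to show this range, with motif letters in capitals. The Clec2h window (chr6:128662135-128662384, + strand) holds no CG dinucleotide and none of the motifs. The Zfp358 window (chr8:3492888-3493137, + strand) holds 24 CG dinucleotides, beside a median of 6 over all windows, and 2 copies of GGGCGG.

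Clec2h: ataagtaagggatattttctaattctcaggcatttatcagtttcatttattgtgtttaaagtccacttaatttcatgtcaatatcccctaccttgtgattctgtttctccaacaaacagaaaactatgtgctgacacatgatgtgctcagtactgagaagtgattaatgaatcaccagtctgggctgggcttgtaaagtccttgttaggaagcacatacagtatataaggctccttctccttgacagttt

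Zfp358: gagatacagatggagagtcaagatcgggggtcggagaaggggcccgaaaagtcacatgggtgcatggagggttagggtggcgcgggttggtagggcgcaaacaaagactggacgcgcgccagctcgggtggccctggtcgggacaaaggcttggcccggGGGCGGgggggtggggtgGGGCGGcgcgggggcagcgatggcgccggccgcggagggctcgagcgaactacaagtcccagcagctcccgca

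The Slc3a1 window (chr17:85028097-85028346, + strand) holds CAAAGTC, the core letters of sites bound by HNF4, a hepatocyte and kidney transcription factor. It also holds TATAAA on both strands in overlapping positions next to the start, and a further copy 119 bases before the start. The Xlr3a window (chrX:73097096-73097345, - strand) holds CCAAT at 3 places.

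Slc3a1: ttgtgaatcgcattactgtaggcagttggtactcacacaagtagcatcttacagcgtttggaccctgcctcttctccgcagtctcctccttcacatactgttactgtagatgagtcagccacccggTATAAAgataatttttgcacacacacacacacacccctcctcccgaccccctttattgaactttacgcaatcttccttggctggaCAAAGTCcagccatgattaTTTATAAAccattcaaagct

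Xlr3a: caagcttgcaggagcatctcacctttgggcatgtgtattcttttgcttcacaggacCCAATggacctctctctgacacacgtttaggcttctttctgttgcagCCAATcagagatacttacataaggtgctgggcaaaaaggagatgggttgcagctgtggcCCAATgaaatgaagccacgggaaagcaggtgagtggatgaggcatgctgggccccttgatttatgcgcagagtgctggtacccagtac

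Clec2h and Dsg1c encode cell-surface proteins. Clec2h is a C-type lectin-like gene of the natural killer gene complex, a family in which several members are ligands of Klrb1 receptors on natural killer cells. It read 8.84, 8.75 and 8.98 in set 1 controls and 8.42, 8.07, 8.17 and 7.69 in the knockouts. In set 2 the controls read 8.27, 7.29 and 7.69 and the knockouts 6.73, 6.95, 6.33 and 6.42. Knockouts were below all controls within each set, but set 1 knockouts overlapped set 2 controls because the whole gene was dimmer in set 2. The difference was -0.96 ± 0.15, or 0.515 of the control level (-0.77 in set 1 and -1.14 in set 2).

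Of 15 measured relatives of Clec2h among Clec2 genes and natural killer cell receptors, 0 passed the threshold in limma in either direction (background 0.431% higher and 0.272% lower), and their median difference was 0.05. Clec2d, a broadly expressed ligand of inhibitory Klrb1 receptors, differed by -0.00 ± 0.08. Clec2i, the closest in size of change, differed by -0.39 ± 0.12 (adjusted p = 0.209), and Clec2e, dim on every array, by -0.29 ± 0.09 (adjusted p = 0.208). Klrb1f, whose product binds Clec2i in mice, was the nearest to a rise, at 0.38 ± 0.09 (adjusted p = 0.066), from a signal below the array median throughout. Markers of natural killer and T cells were dim, with 6 of 7 below the array median on every array and list means of 4.20 to 4.81 in controls and 4.41 to 4.76 in knockouts.

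Dsg1c encodes a desmoglein, an adhesive cadherin of desmosomes, the spot junctions between epithelial cells. Set 1 controls read 5.88, 5.95 and 6.75 and knockouts 5.33, 5.08, 5.70 and 4.77. Set 2 controls read 6.34, 5.99 and 6.76 and knockouts 5.71, 5.47, 5.38 and 5.41. The highest knockout (5.71) was below the lowest control (5.88), and the difference was -0.92 ± 0.16 (0.528 of control). The row was above the array median on 6 of 14 arrays, all of them controls.

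Among 15 other desmosome genes 0 passed in limma, with a median difference of -0.05. The neighbouring paralog Dsg1a differed by -0.67 ± 0.21 (adjusted p = 0.203). Its set 1 knockouts (4.02 to 4.09) lay below the controls (4.43 to 5.70), whereas in set 2 the knockouts (4.01 to 5.04) overlapped the controls (4.58 to 4.79). Dsg1b, the remaining copy, differed by -0.17 ± 0.11, and both paralogs were below the array median on all arrays. Dsg1 copies are closely alike and which letters the probes read is not known here, so part of one copy's signal may belong to another. Dsg2, the widely expressed desmoglein, differed by -0.05 ± 0.07, and Jup and Dsp, the plaque proteins plakoglobin and desmoplakin, by -0.08 ± 0.06 and -0.18 ± 0.09. Of 6 epidermis markers 5 were below the array median on every array.

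Rcan2, Tle3, Arhgap6 and Zfp358 act in signalling and gene control. Rcan2 encodes a regulator that binds and restrains calcineurin, the calcium-dependent phosphatase that activates NFAT transcription factors. It read 6.04, 5.45 and 5.14 in set 1 controls and 4.45, 5.06, 4.88 and 4.18 in knockouts. In set 2 it read 6.16, 6.35 and 6.06 in controls and 5.40, 5.92, 5.41 and 5.08 in knockouts. Sets 1 and 2 were each free of overlap, with little room in set 1, where the lowest control (5.14) and the highest knockout (5.06) were close. The difference was -0.82 ± 0.16 (0.568 of control).

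Rcan1, its paralog, differed by 0.01 ± 0.11, and the calcineurin catalytic subunit genes Ppp3ca, Ppp3cb and Ppp3cc by -0.01 ± 0.06, 0.01 ± 0.07 and 0.05 ± 0.10. Of the 15 measured calcineurin and NFAT relatives 0 passed in limma, and all lay between -0.13 and 0.21.

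Tle3 encodes a Groucho-type corepressor, which has no DNA contact of its own and is brought to genes by partners such as TCF, RUNX and Hes proteins. Set 1 controls read 7.56, 7.51 and 6.97 and knockouts 7.00, 7.20, 6.53 and 6.57, so control 3 fell among the knockouts. Set 2 controls read 8.85, 8.79 and 9.18 and knockouts 7.90, 8.17, 7.99 and 8.00, with a clear gap. The difference was -0.72 ± 0.13 (0.606 of control), -0.52 in set 1 and -0.92 in set 2.

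Its paralog Tle1 differed in the opposite direction, by 0.42 ± 0.12, which did not pass (adjusted p = 0.144). Tle4 differed by 0.17 ± 0.09 and Tle5, a short family member that counteracts the others, by -0.02 ± 0.06. Among 17 measured corepressor relatives and partners 0 passed in limma, with a median of 0.04.

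Arhgap6, an X-linked gene for a GTPase activating protein that remodels the actin cytoskeleton, differed by -0.55 ± 0.11 (0.683 of control). Controls ran from 6.40 (control 1) to 6.92, and knockouts from 5.90 to 6.68. Control 1 lay below 2 knockouts of set 2, but above all knockouts of its own set.

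Zfp358 encodes a C2H2 zinc finger protein. It lay between 7.50 and 7.82 in controls and between 6.96 and 7.45 in knockouts, with no overlap. Its difference of -0.41 ± 0.09 (0.753 of control) was nearly the same in both sets, -0.43 and -0.39.

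Slc3a1 and Pter handle amino acids and their derivatives. Slc3a1 encodes rBAT, the heavy subunit that carries the transporter Slc7a9 to the membrane for cystine and basic amino acid uptake, best known in kidney and gut. The 3 controls of set 1 ran from 8.63 to 9.15, and the knockouts read 8.41, 8.32, 8.61 and 8.59. Set 2 controls read 9.54, 9.14 and 9.31 and knockouts 8.58, 8.56, 8.45 and 8.27. The 8 knockouts stayed within 8.27 and 8.61, and control 3 (8.63) lay just above the highest of them. The difference was -0.65 ± 0.11 (0.636 of control).

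Slc7a9, its partner subunit, differed by -0.26 ± 0.07 (adjusted p = 0.141) from a signal below the array median on all arrays. Slc3a2, the paralogous heavy subunit, differed by -0.05 ± 0.07. Of 10 measured relatives among these transporters 0 passed in limma, with a median of 0.02. Because Slc3a1 and Clec2h are also kidney genes, kidney markers were examined: 7 of 8 were below the array median on every array, and list means were 4.34 to 4.53 in controls and 4.32 to 4.54 in knockouts.

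Pter encodes an enzyme that hydrolyses N-acetyltaurine, releasing taurine. Set 1 controls read 8.65, 8.78 and 8.61 and knockouts 8.38, 8.42, 8.49 and 8.52. Set 2 controls read 9.03, 8.99 and 8.72 and knockouts 8.38, 8.36, 8.53 and 8.39. The change was small but the knockouts were tightly placed, with an SD of 0.06 in set 1 and 0.08 in set 2, and the difference was -0.36 ± 0.08 (0.777 of control).

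Other genes of taurine metabolism did not pass in limma (0 of 10 measured), and the larger differences among them were positive. Csad, which decarboxylates cysteine sulfinate on the way to taurine, differed by 0.52 ± 0.17 (adjusted p = 0.224) and Ado by 0.24 ± 0.10 (adjusted p = 0.423). Slc6a13, a taurine and GABA transporter, differed by 0.21 ± 0.07 (adjusted p = 0.217) and Fmo1, which oxidises hypotaurine, by 0.19 ± 0.07 (adjusted p = 0.275). Cdo1 and Baat, for cysteine oxidation and for bile acid conjugation to taurine, differed by -0.03 ± 0.06 and -0.02 ± 0.08.

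Fndc4 encodes a fibronectin type III protein that can be shed as a secreted factor and resembles Fndc5, the irisin precursor. Set 1 controls read 8.80, 8.47 and 8.39 and knockouts 8.18, 8.46, 8.13 and 8.35, with knockout 2 among the controls. Set 2 controls read 8.61, 8.67 and 8.86 and knockouts 7.84, 8.14, 8.24 and 8.03. The difference was -0.46 ± 0.10 (0.725 of control), -0.28 in set 1 and -0.65 in set 2. Fndc5 differed by 0.15 ± 0.11, and 0 of 10 measured FNDC relatives passed in limma.

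**Figure D2:**
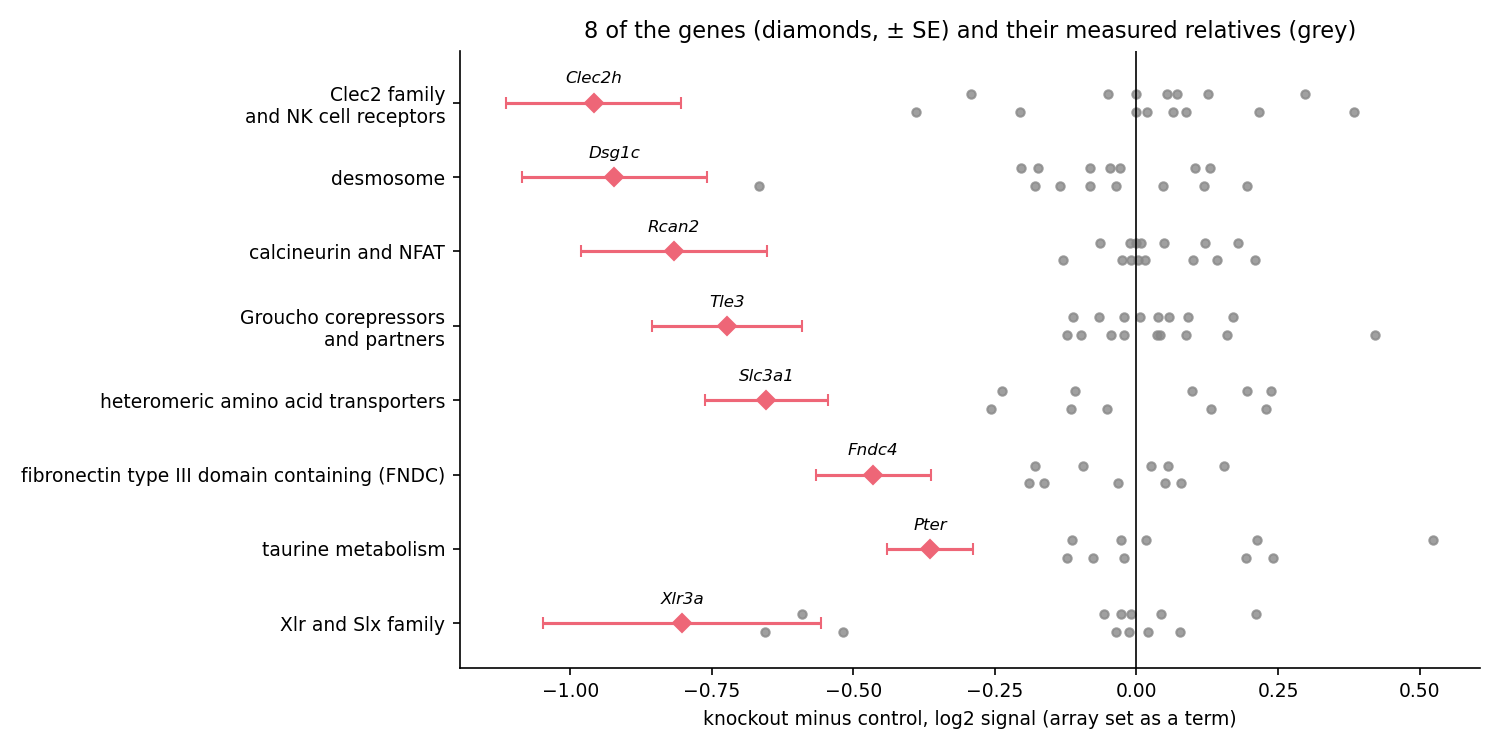
Knockout minus control on the log2 scale (horizontal axis, array set as a term) for 8 of the 10 genes (red diamonds, ± SE) and for the measured genes of a list of relatives each (grey points). Zfp358 and Arhgap6 have no list. Of the 104 relatives 0 passed the threshold, and the lowest grey points are Dsg1a at -0.67 and Xlr3c at -0.66.

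Over the 8 lists of relatives, 0 of 104 measured genes passed the threshold in limma, 15 had an unadjusted p under 0.05 (10.4% of all genes did) and the median difference was 0.00. This does not show that the relatives were unaffected, since the count over all genes was itself small.

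Xlr3a belongs to a cluster of X-linked lymphocyte-regulated genes present in several near-identical copies. It read 6.47, 6.41 and 5.71 in set 1 controls and 5.68, 5.82, 6.98 and 5.71 in knockouts. Set 2 controls read 6.50, 6.95 and 6.90 and knockouts 5.22, 5.44, 5.39 and 5.26. Knockout 3 was the highest of all 14 arrays, while the set 2 groups were more than 1 log2 unit apart at their nearest. The difference was -0.80 ± 0.24 over both sets, -0.15 in set 1 and -1.45 in set 2. Without knockout 3 it was -0.99 ± 0.17, with -0.47 in set 1, and Xlr3a then passed the threshold in limma, which as part of the choice is given without a p.

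Xlr3c (-0.66 ± 0.15, adjusted p = 0.0676), Xlr3b (-0.59 ± 0.19, adjusted p = 0.224) and Xlr4a (-0.52 ± 0.15, adjusted p = 0.174) differed in the same direction, and Xlr4b, Xlr4c and the 3 Xlr5 copies by -0.06 to 0.08. Knockout 3 was also the highest knockout for Xlr3b (4.34), Xlr3c (5.47), Xlr4b (4.65) and Xlr4c (4.89), and for Xlr4b and Xlr4c the highest array of all. Without knockout 3, Xlr3c fell by 0.75 (adjusted p = 0.0331 in limma), an alternative chosen after seeing the data. Xlr3b, Xlr3c, Xlr4b and Xlr4c were below the array median on every array. Signal shared between copies of the cluster cannot be separated here.

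**Figure D3:**
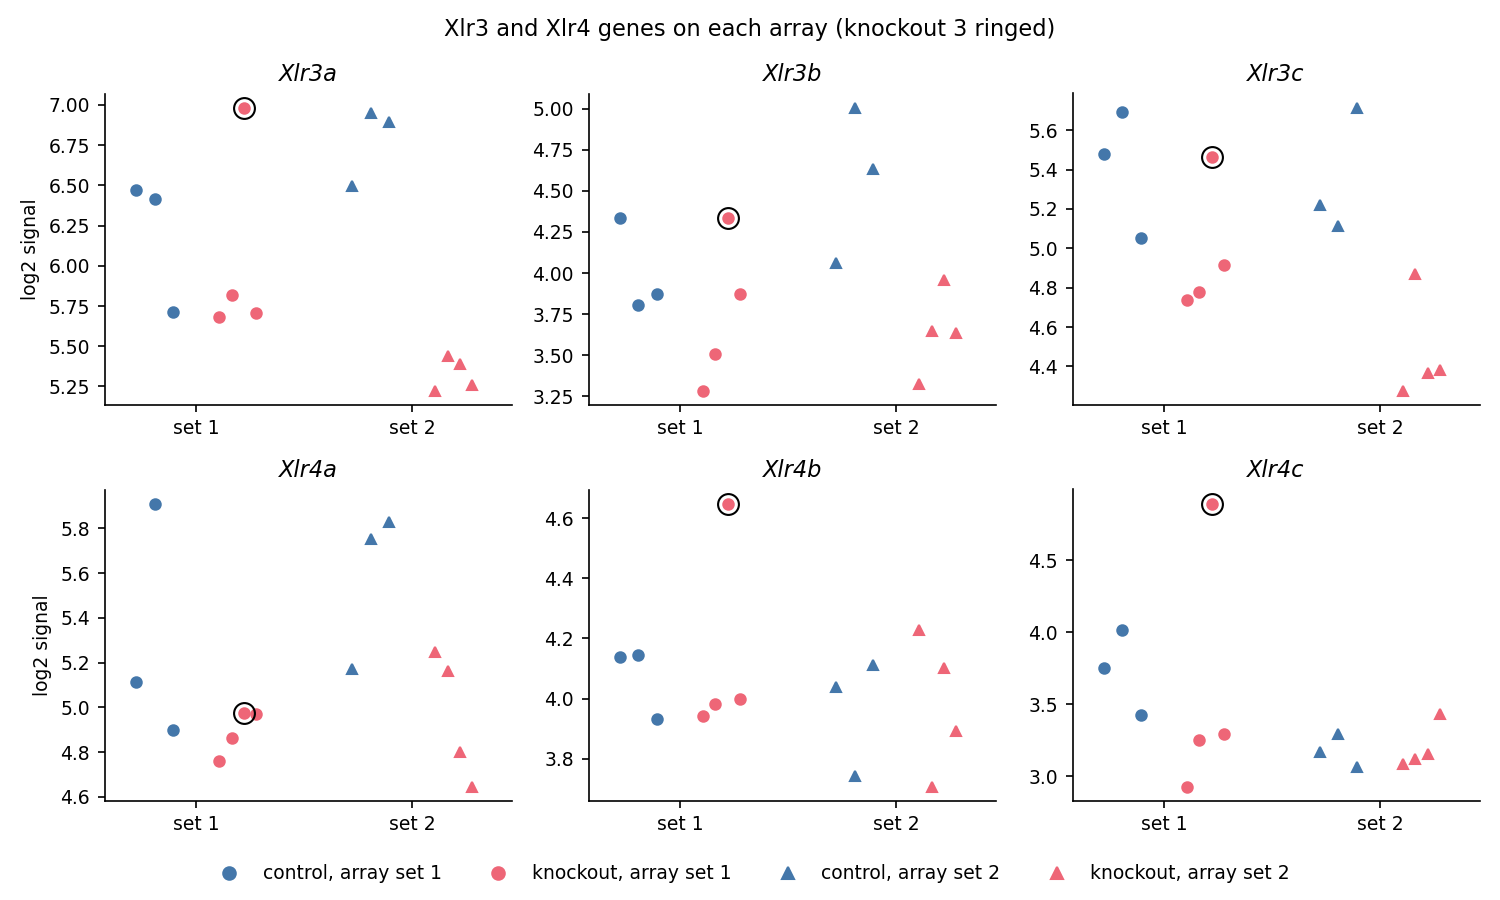
Log2 signal (vertical axes) of the Xlr3 and Xlr4 genes on each of the 14 arrays, with colours and shapes for group and array set and knockout 3 ringed. Knockout 3 reads 6.98 for Xlr3a and is the highest knockout in 5 of the 6 panels, Xlr4a being the exception.

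The difference between the array sets played no part in the choice of the genes and could be tested. Of the 10, 3 differed between sets past the threshold in limma, against 55.4% of all genes (34.3% higher and 21.1% lower in set 2). Tle3 was higher in set 2 by 1.36 ± 0.13 (adjusted p = 1.32e-07) and Rcan2 by 0.74 ± 0.16 (adjusted p = 0.000974), and Clec2h was lower by 1.32 ± 0.15 (set 2 minus set 1 -1.32, adjusted p = 1.27e-06). The other 7 lay between -0.16 and 0.23. Median centring of the arrays, which moved the median set gap of all genes from 0.11 to 0.01, changed the split of called genes from 6693 higher and 4116 lower to 4941 and 4936, and again called 3 of the 10. Quantile normalization gave 5593 higher and 4368 lower and called 5 of the 10.

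Whether the knockout difference itself differed between the sets was tested as an interaction, which the mean difference does not fix. Xlr3a had been singled out by its set 2 values, so its set 2 minus set 1 value of -1.30 ± 0.38 is a description with no test. In limma 0 of the other 9 passed (0% of all genes), and 1 had an unadjusted p under 0.05, against 4.83% of all genes. It was Slc3a1 (-0.42 ± 0.20, unadjusted p = 0.0474, adjusted p = 0.998 in limma). The fall was larger in set 2 for 7 genes and larger in set 1 for Dsg1c, Rcan2 and Zfp358. With 3 controls and 4 knockouts a set, the intervals stayed wide: for Clec2h the interaction of -0.37 had a 95% interval of -1.02 to 0.28.

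Co-variation with Prkaa2 was examined to ask whether arrays with less remaining Prkaa2 also had less of these genes. Within a set the groups form separate clusters of Prkaa2, so any pooled correlation would restate the choice, and each array's deviation from the mean of its own group and set was used instead. Deviations of Prkaa2 were small, from -0.18 to 0.15. Over all 14 arrays Pearson's r with Prkaa2 was positive for 2 of the 10 genes, with a median of -0.17 and a range of -0.61 to 0.26. Exact two-sided permutation within group and set gave no adjusted p under 0.597 for these 10.

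Over the 7 arrays of set 1 the range was -0.52 to 0.40, and over the 7 of set 2 it was -0.77 to 0.46, with lowest exact permutation p of 0.299 (Tle3) and 0.0694 (Rcan2). The lowest r was that of Clec2h in set 1 and of Rcan2 in set 2. Of 40 relations computed with Pearson's r, 0 passed after adjustment by exact permutation, and 1 had an unadjusted p under 0.05. By Spearman's coefficient Clec2h (14 arrays and knockouts) and Pter (knockouts) were under 0.05 unadjusted, with a lowest adjusted exact permutation p of 0.463. How many other genes relate to Prkaa2 as closely was not computed. With 144 orders in a set of 7 the smallest possible p is 0.00694, and with 576 orders over the 8 knockouts it is 0.00174, so neither can pass alone after adjustment over 40.

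The 1 relation was Clec2h over the 8 knockout arrays, and it ran against the direction of the knockout effect. Knockouts with more Prkaa2 than their set had less Clec2h (r = -0.92, exact permutation p = 0.00694, Spearman's coefficient = -0.90, p = 0.0139, n = 8, adjusted p = 0.278). Knockout 6 had the lowest Prkaa2 deviation (-0.18) and the highest of Clec2h (0.34), and knockout 4 paired 0.10 with -0.40. Without the 2 arrays farthest from the median r was -0.81. Over all 14 arrays Clec2h had r = -0.61 (exact permutation p = 0.052, Spearman's coefficient = -0.67, p = 0.0417, r = -0.61 without the 2 farthest, n = 14, adjusted p = 0.597). Among knockouts Pter had the highest r, 0.62 (exact permutation p = 0.146, Spearman's coefficient = 0.74, p = 0.0399, r = 0.31 without the 2 farthest, n = 8, adjusted p = 0.694).

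**Figure D4:**
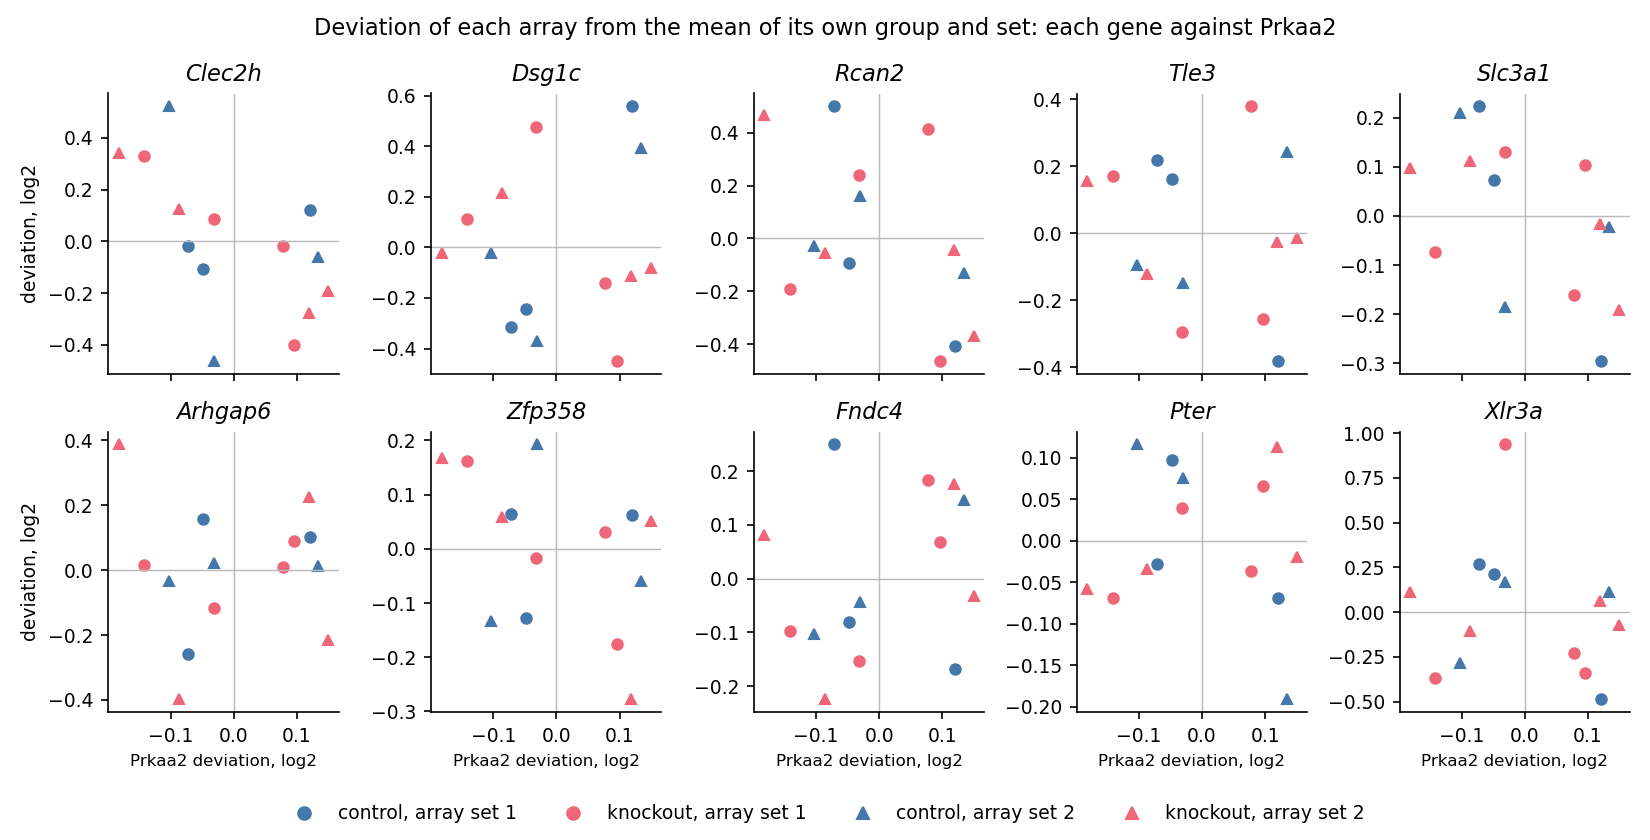
Deviation of each array from the mean of its own group and array set, on the log2 scale, for each of the 10 genes (vertical axes) against Prkaa2 (horizontal axes). In the Clec2h panel the 8 knockouts (red) slope downward (r = -0.92, adjusted exact permutation p = 0.278, not past the threshold). Over all 14 arrays r lies between -0.61 and 0.26 for the 10 genes.

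Whether the 10 genes moved together from array to array was tested on the same deviations. Of 45 pairs 24 had a positive r of deviations over the 14 arrays, with a median of 0.06. For Pearson's r, exact permutation within group and set gave 0 pairs with an unadjusted p under 0.05, and the lowest adjusted p was 0.876. For Spearman's coefficient, not adjusted here, Tle3 with Fndc4 and Clec2h with Dsg1c were under 0.05. Clec2h with Dsg1c had a coefficient of 0.62 (exact permutation p = 0.0259). The highest r was between Tle3 and Fndc4 (r = 0.62, exact permutation p = 0.0548, Spearman's coefficient = 0.66, p = 0.034, n = 14), which was 0.47 without the 2 farthest arrays. The lowest was between Dsg1c and Pter (r = -0.53, exact permutation p = 0.116, Spearman's coefficient = -0.51, p = 0.121, n = 14), and -0.67 without the 2 farthest.

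**Figure D5:**
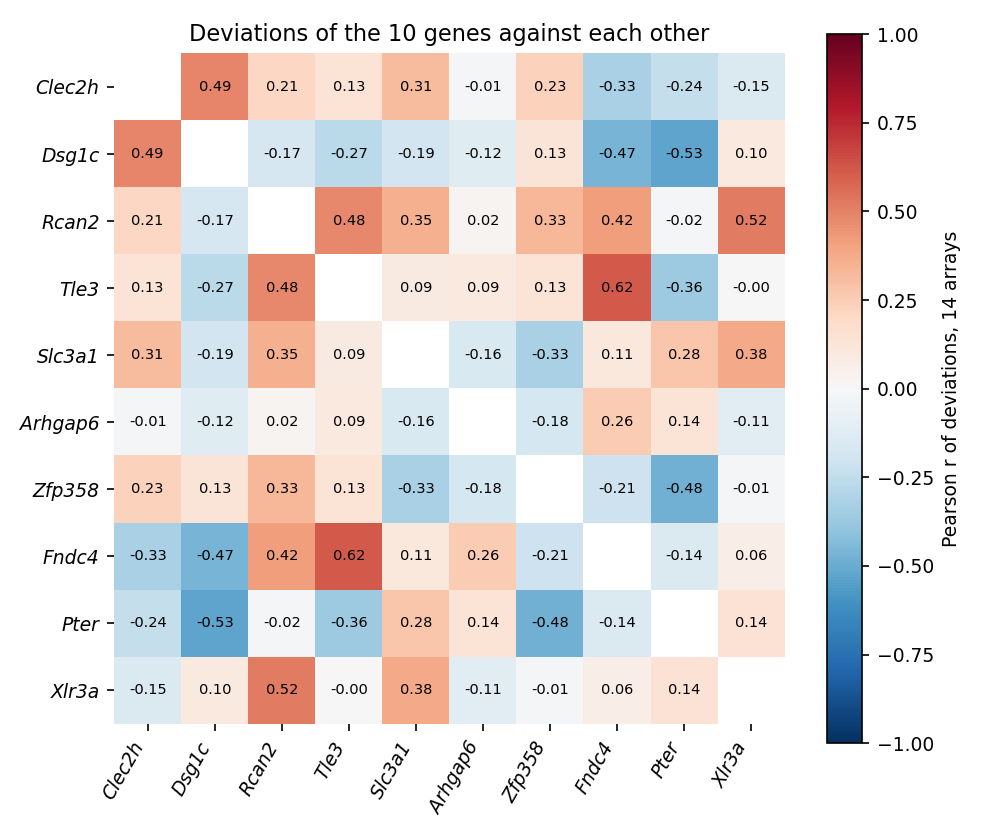
Pearson r of the deviations from group and array set means between each pair of the 10 genes over 14 arrays, on a colour scale from -1 (blue) to 1 (red) with the value printed. Values run from -0.53 for Dsg1c with Pter to 0.62 for Tle3 with Fndc4.

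The genes whose deviations were most like those of each of the 10 were then listed. Among 11852 named genes with a mean level of at least 5, the 3 nearest by r of deviations over the 14 arrays lay between 0.81 and 0.91. They are a description with no p, since each is picked as the highest of 11852 values over only 14 arrays. How high such picked values run for unrelated genes was not tested, so they do not show a link. For Clec2h they were Slc27a2 (0.89), a hepatic very long-chain acyl-CoA synthetase, Man1a2 (0.87), a Golgi mannosidase, and Misp (0.87). For Slc3a1 they were Trim14 (0.88), Abca1 (0.87), the cholesterol exporter, and Ddx19b (0.86). For Tle3 they were Aldh2 (0.90), the mitochondrial aldehyde dehydrogenase, Epha10 (0.90) and Zfp715 (0.89).

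For Rcan2 the nearest were Khsrp (0.89), an mRNA decay factor, Ier3 (0.88), an immediate early gene, and Rai1 (0.87). For Dsg1c they were Samd5 (0.90), Med14 (0.89) and Gca (0.89). For Arhgap6 they were Ptgr2 (0.91), a prostaglandin reductase, Ldlrad3 (0.90) and Tmem25 (0.88). For Zfp358 they were Zfp759 (0.91), Pik3r5 (0.90) and Wnt9b (0.89), a Wnt ligand made by liver endothelium.

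For Fndc4 the nearest were Apol8 (0.90), Dmac1 (0.88) and Clpb (0.84), for Pter Dtymk (0.89), Rpp30 (0.89) and Agps (0.88), the peroxisomal enzyme of ether lipid synthesis, and for Xlr3a Sipa1l1 (0.83), Ttll12 (0.83) and Tert (0.81). No gene was among the 3 nearest of more than 1 of the 10, and none of the 10 was among the 3 nearest of another.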

How the data were processed

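Liver RNA of 14 samples was labelled with the Affymetrix WT PLUS kit, per the labels' protocols. The deposited table holds 22206 rows of log2 signal. Per the submitters' processing notes the authors used RMA and Partek, without versions, and no further normalization was applied. The scale was inferred from the values (2.13 to 13.8), and a genome build is not given in the sources used here. Arrays have no read depth, and their number limits the precision.

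Rows were named from a platform annotation (19572 with 1 symbol, 2634 with none), keeping the brightest row of each of 19505 genes. Array sets came from average-linkage clustering of correlations (0.988 to 0.994 within, 0.951 to 0.963 across). limma 3.58.1 in R 4.3.3 was fitted to all genes with group and set (11 residual degrees of freedom) or their interaction (10), with Benjamini-Hochberg adjustment over all genes at 0.05, and was tested on simulated data. Deviations were correlated with exact permutation within group and set (20736 orders over 14 arrays), adjusted over 40 relations or 45 pairs. The 10 genes, the lists and the use of the set term were chosen with earlier results of these data known. Named genes were the 10, up to 4 called or 3 close relatives per list, and the 3 nearest by deviations. Further relatives, with low unadjusted p or as subunits and paralogs, were added with their values known. The relatives of Arhgap6 are not reported here. Neighbouring genes and the values without knockout 3 were added after seeing the data.

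Replicate numbers are shared by control and knockout 1 to 6. Same-numbered arrays' deviations from group and set means correlated at 0.023 to 0.087 over all genes, so the numbers were not taken as pairs. Knockout 7 and 8 carry description numbers already used for 5 and 6. No 2 arrays were identical (0 pairs), and r was 0.9889 for 5 with 7 and 0.9909 for 6 with 8, beside 0.9892 to 0.9909 for the other pairs of these 4, so each was counted as a sample. The label of 4 months exceeds the age the protocol gives (injection at 10 weeks, then 3 weeks of metformin). Tried as alternatives were no set term, the replicate block, leaving out arrays, averaging, quantile normalization, median centring, a filter on dim genes, trend and robust eBayes, and the mean of a gene's rows.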

Additional observations from a re-analysis of the deposited data

Results flagged for a closer look

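Samples far from the rest of their group were searched for among the 10 genes, Prkaa1 and Prkaa2, in 48 groups of values (all controls, all knockouts, and the knockouts of each array set). Chance alone marks about 5% of such groups, and 3 were marked. For Xlr3a, knockout 3 read 6.98 where the next of the 8 knockouts read 5.82, and it stood apart both among all knockouts and among the 4 of set 1. For Arhgap6, control 1 read 6.40 where the next of the 6 controls read 6.76. With control 1 left out, Arhgap6 fell by 0.613, beside 0.55 with all arrays.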

How the results depend on the processing

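All 270 values of the 10 genes under the alternatives kept their direction, and 9 moved by over 1 SD: both single-set values of Slc3a1, Fndc4, Pter and Xlr3a, and Clec2h (-0.63) with the replicate block and no set term. That direction is the one the genes were chosen for, on overlapping arrays, so keeping it tests nothing. Some alternatives cannot move these estimates: no set term, the dim-gene filter, trend and robust eBayes, and the mean of rows. Clec2h stood at -0.9582 under each of them. Calls were less stable. Over all genes 137 passed with the set term (84 higher and 53 lower). The count was 0 with no set term, 26 without control 1 and control 4, 67 with knockout 5 averaged with 7 and 6 with 8, 12 with knockout 7 and 8 left out, 223 with only genes whose higher group mean was at least 5, 325 with trend and robust eBayes and 2 in each array set alone. The replicate block gave 2 genes with the set term and 1 without. Leaving out single arrays gave 44 to 132, with a change of over 1.5 times unless the array was control 3, control 6 or knockout 6.

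Of the 10 genes 9 passed, and 3 to 7 without single arrays, the low counts of 3 coming without control 2, control 4 or knockout 4. The number was 0 with no set term, 0 with the replicate block with or without it, 1 without control 1 and control 4, 3 with averaged knockouts, 0 with knockout 7 and 8 left out, and 0 and 1 in set 1 and set 2 alone. Clec2h, Dsg1c and Slc3a1 kept the call without any 1 array. These counts and calls come from the comparison that chose the genes, so they describe the choice and test nothing. For the gap between sets, quantile normalization called 5 of the 10 in place of 3. Relatives past the threshold numbered 0 to 2 without single arrays (Clec2e and Xlr3c without control 3, Xlr3c without knockout 3), 1 with quantile normalization (Klrb1f), 1 with the higher group mean at 5 or above (Xlr3c, kept by its control mean of 5.38, beside 4.72 in knockouts) and 4 with trend and robust eBayes. No relation with Prkaa2 passed under any alternative run, 0 throughout. Dsg1c lay below the array median on all 8 knockout arrays and Rcan2 on 9 of 14 arrays, and no background level is given.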

Other observations

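The genes that flank the 10 on the chromosome were examined after the data were seen, as the nearest protein-coding gene on each side with an array row. Of 20 such neighbours 0 passed the threshold in limma, and 5 had an unadjusted p under 0.05, all lower in knockout livers, where 4.83% of all genes were lower at that p: Dsg1a beside Dsg1c, Xlr4a beside Xlr3a, Gckr beside Fndc4, Cyp39a1 beside Rcan2 and Uaca beside Tle3. Dsg1a and Xlr4a belong to the families of the genes they flank, and signal shared with those genes cannot be separated here. Of the 20 neighbours 14 had a lower difference, beside 9645 of all 19505 genes. Whether a fall extends along the chromosome was not tested. Gckr, the glucokinase regulatory protein gene, differed by -0.24 ± 0.07 (adjusted p = 0.201) and Cyp39a1, an oxysterol hydroxylase gene, by -0.24 ± 0.09 (adjusted p = 0.299). The neighbours of Slc3a1 differed by -0.05 (Ppm1b) and 0.00 (Prepl), and those of Pter by -0.01 (Mindy3) and 0.05 (C1ql3). Klrb1a and Klrb1, on either side of Clec2h, were dim and differed by 0.13 ± 0.11 and 0.05 ± 0.09. Of the 10 genes 2 lie on the X chromosome, Arhgap6 and Xlr3a, and 0 lie on the chromosomes of Prkaa1 or Prkaa2.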
